A study of Mus musculus with 12 samples.

Results

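Hepcidin is the liver hormone that limits how much iron enters the blood, and 10 genes of hepcidin and iron handling were followed in the livers of mice injured with acetaminophen (APAP). The genes were listed by symbol and matched to the Ensembl identifiers of the deposited count table: Hamp and Hamp2 (the hepcidins), Bmp6 (a ligand that raises hepcidin), Tfr2 (an iron sensor), Trf (the iron carrier of plasma), Tfrc (the uptake receptor), Fth1 and Ftl1 (the ferritin storage subunits), and Slc40a1 and Cp (iron export). All 10 were found among the 24187 genes of the table, and all 10 were among the 22581 genes that passed the filter on low counts and were tested. Bulk RNA sequencing was done on whole liver of 12 mice, 10 to 12 weeks old by the methods, which name C57BL/6 J mice in one place and C57BL6/JOlaHsd mice for the APAP experiments in another. The groups were control mice (n = 3), mice given APAP and then vehicle (n = 5), and mice given APAP and then hAAMs (n = 4), which are human alternatively activated macrophages grown from blood monocytes of donors. The sample labels give an APAP dose of 350 mg/kg, while the paper places these livers in its severe model, for which the methods name 500 mg/kg. In that model mice were fasted for 12 h before APAP, and vehicle (phosphate-buffered saline) or 1000000 hAAMs followed 16 h after APAP. Within the paper, collection was 32 h after APAP by a legend and 36 h by the methods. The labels call the control mice untreated, while the methods describe fasting before APAP or saline. The sex of each animal is not stated, and all 12 livers expressed the Y-linked Ddx3y (53.3 to 70.7 counts per 1000000, CPM) with little Xist (0.181 to 2.68 CPM). No gene deletion or transgene is described for any group.

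Hepcidin is secreted by hepatocytes and binds ferroportin, the product of Slc40a1 and the only known exporter of iron from cells, which is then degraded, so that iron stays in macrophages, gut cells and hepatocytes. Its transcription is raised by BMP ligands from sinusoidal endothelial cells acting through SMAD proteins, with Tfr2 and Hfe reporting the transferrin iron of the blood, and by interleukin 6 acting through STAT3 in inflammation. Inside cells, iron regulatory proteins bind stem-loops called iron-responsive elements (IREs) in the messenger RNA, holding back the translation of ferritin and ferroportin and protecting the transferrin receptor message when iron is scarce. Transcript counts do not show that layer of control or the amount of protein.

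Total counts ranged from 47391650 to 74056505 per liver. All 9 hepatocyte marker genes were detected in every liver, with a summed level of 71000 to 107400 counts per 1000000 (CPM, scaled here with TMM factors), so the labelled tissue was borne out in each library. In livers of mixed cell types, fewer cells of a type and less RNA per cell cannot be told apart. Against control, 5 of 8 markers of recruited monocytes and macrophages were higher in each APAP group (summed level 58.4 to 71.4 CPM in control, 138 to 444 with vehicle and 137 to 388 with hAAMs), and 4 of 9 hepatocyte markers were lower with vehicle and 2 of 9 with hAAMs. Among Kupffer cell markers 1 of 6 was higher in each APAP group (167 to 231 CPM in control, 196 to 308 with vehicle, 199 to 283 with hAAMs). That gene was Marco, with means of 19.5 CPM in control, 62.7 with vehicle and 54.6 with hAAMs. The other Kupffer cell markers were not called, and the mean of Clec4f was lower (75.8 CPM in control, 54.5 with vehicle and 59.2 with hAAMs). Beside these and the later marker counts, 15.0% of all genes tested were higher and 14.8% lower with vehicle, and 10.7% and 9.96% with hAAMs. The part of these cell types in the results on iron genes was not tested. The library of hAAM replicate 4 and that of vehicle replicate 3 differed by only 1.19 times counting noise, while the other 35 pairs of APAP livers differed by 2.64 to 6.87 times. A named gene whose call ended without both libraries is described as such. Vehicle replicate 5 stood apart in the hepcidin genes and in red cell transcripts, as described with Hamp.

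Per length of exon, the members differed widely in level in control livers. Trf was highest, at 7351 ± 995 RPKM (scaled counts per 1000 bases of exon and 1000000 counts, SD, n = 3), followed by Hamp at 1215 ± 230, Ftl1 at 401 ± 60.4, Cp at 307 ± 39.0, Fth1 at 169 ± 16.9 and Tfr2 at 120 ± 10.8. Far lower were Slc40a1 at 12.01 ± 0.996 RPKM, Hamp2 at 5.02 ± 2.51, Tfrc at 4.00 ± 0.837 and Bmp6 at 1.82 ± 0.201. The control ranges of Ftl1 and Cp overlapped, as did those of Hamp2 and Tfrc, and no other neighbours in this order did. With vehicle the order was exchanged between Fth1 and Cp and between Tfrc and Hamp2: Fth1 stood at 301 ± 43.8 RPKM and Cp at 240 ± 33.8 (n = 5), with overlapping ranges of 258 to 351 and 190 to 275. Tfrc stood at 6.19 ± 1.60 RPKM and Hamp2 at 3.30 ± 1.76, again with overlap. These lengths are of all annotated exons joined, so a gene whose long exons are little used has its level understated.

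**Figure D1:**
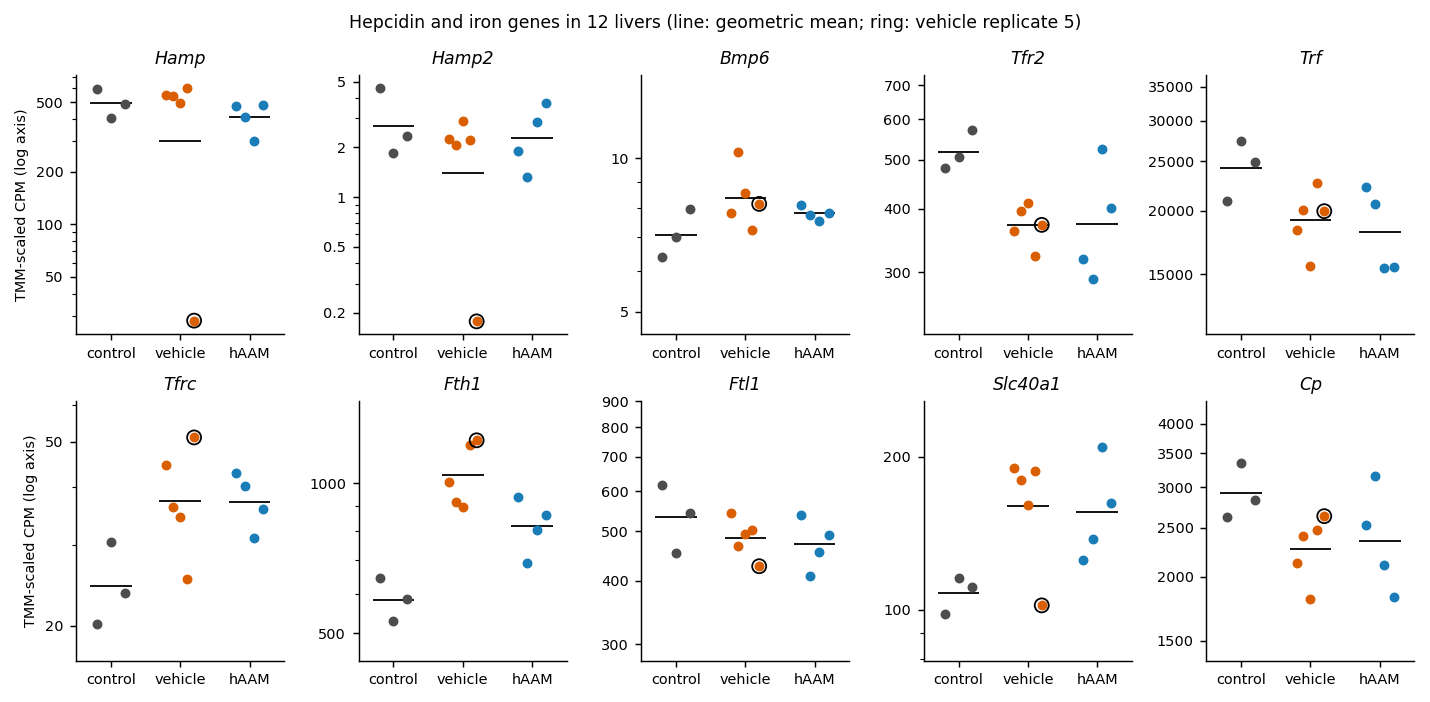
Each point is the level of a gene in a liver (TMM-scaled CPM, log axis) in control (n = 3), APAP vehicle (n = 5) and APAP hAAM (n = 4) mice, the line is the geometric mean, and the ring marks vehicle replicate 5. Hamp sat between 301 and 601 CPM in 11 livers and at 28.1 CPM in vehicle replicate 5, and Fth1 was above every control liver in all 9 APAP livers.

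The first comparison asked how iron genes stood in the injured liver. Of the 10 genes, Fth1, Tfrc and Slc40a1 were higher with vehicle than in control and Tfr2 was lower (edgeR's quasi-likelihood test, Benjamini-Hochberg FDR under 0.05 over all genes), so 4 of 10 were called, where 29.8% of all genes tested were. Members called higher were 3 of 10 against 15.0% of all genes, and 1 of 10 was lower against 14.8%. At an unadjusted p under 0.05 there were also 4 of 10, against 41.8% of all genes. The median log2 fold change of the members was -0.15, that of all genes 0.01. Levels did not overlap between the groups for Fth1 and Tfr2, and 34.8% of all genes tested showed no overlap. With hAAMs against control, 1 of 10 members was called, Fth1, where 20.7% of all genes were called (10.7% higher and 9.96% lower), with a median of -0.21 for the members and 0.02 for all genes. At an unadjusted p under 0.05 there were 4 of 10 members and 35.2% of all genes. Fth1, Tfrc and Slc40a1 did not overlap between these groups, as was the case for 28.5% of all genes. Both comparisons used the same 3 control livers and are not independent of each other. Scaled by library size alone, 88.6% and 89.4% of all calls were higher, against 50.3% and 51.8% here, and the median of all genes moved to 0.36 and 0.32. With only 10 members, nothing is read from these shares about the list as a whole.

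**Figure D2:**
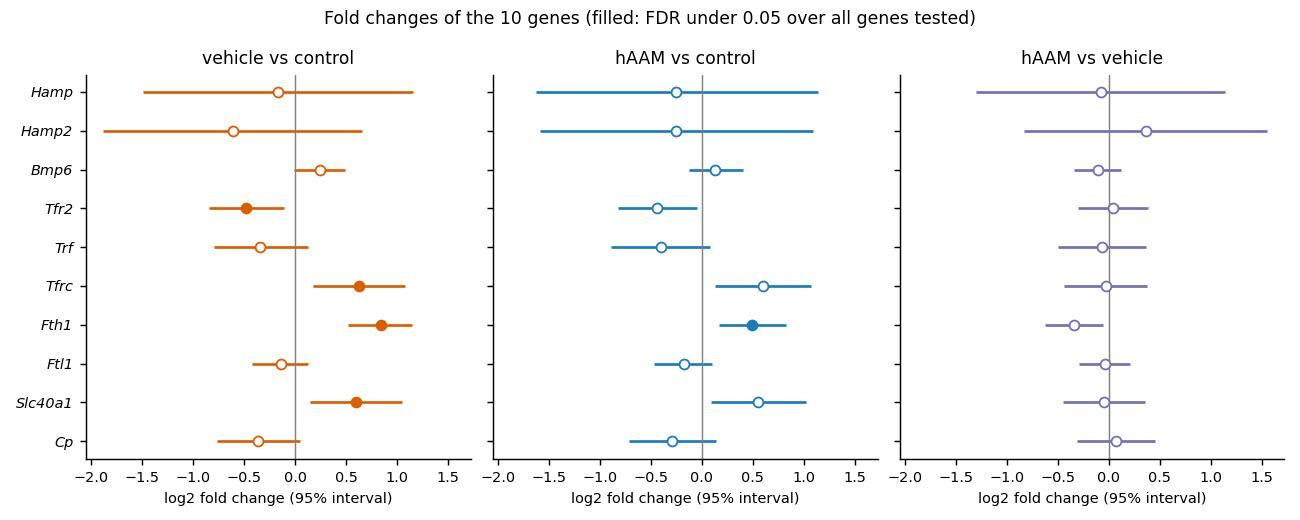
Log2 fold change of each gene (point) with its 95% interval (line) in the 3 comparisons, filled where the FDR over all genes tested was under 0.05. The 4 filled points with vehicle are Tfr2, Tfrc, Fth1 and Slc40a1, the only filled point with hAAMs is Fth1, none is filled between the treatments, and the intervals of Hamp and Hamp2 are the widest.

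Hamp, the main hepcidin gene (ENSMUSG00000050440, chromosome 7, 30942368 to 30944032, minus strand, GRCm38), did not differ between the groups beyond its spread. Control livers had 597, 409 and 489 CPM. The vehicle livers had 551, 546, 492, 601 and 28.1 CPM, in the order of their replicate numbers. With hAAMs the values were 479, 414, 301 and 486 CPM. Apart from vehicle replicate 5, all livers of the 3 groups lay between 301 and 601 CPM, and the groups overlapped. The log2 fold change was -0.17 (SE 0.609, 95% interval -1.49 to 1.16, edgeR FDR 0.86) with vehicle and -0.25 (SE 0.638, -1.63 to 1.14, edgeR FDR 0.814) with hAAMs against control. The SD of log2 CPM among vehicle livers was 1.92, and 0.12 leaving out vehicle replicate 5. Without it the vehicle value was 0.14 (edgeR FDR 0.6).

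Hamp2 (ENSMUSG00000056978, chromosome 7, 30922372 to 30924681, minus strand), the second hepcidin gene of the mouse, lies beside Hamp and was a minor transcript. Its counts were 241, 117 and 119 in control, 131, 119, 150, 149 and 12 with vehicle, and 101, 72, 148 and 199 with hAAMs. In CPM that was 2.93 ± 1.46 (SD, n = 3), 1.92 ± 1.03 (n = 5) and 2.46 ± 1.05 (n = 4), with overlap between all groups (log2 fold change -0.61, SE 0.586, edgeR FDR 0.46 with vehicle, and -0.25, SE 0.617, edgeR FDR 0.805 with hAAMs). Control replicate 1 held the highest level, and the vehicle value was -0.13 without it. Hamp2 took 0.564% ± 0.174 of the hepcidin counts in control, 0.473% ± 0.124 with vehicle and 0.605% ± 0.296 with hAAMs. No pair of groups passed for this share (two-sided exact permutation tests over livers, smallest p = 0.397, 0.643 after Benjamini-Hochberg adjustment over 9 tests). With 3 to 5 livers a group a difference can be missed. In vehicle replicate 5, where both genes were lowest, the share was 0.628%, inside the range of the control livers. The coding sequences match at 93.6% of aligned bases, with an identical run of up to 80 bases, so some reads can be assigned to either gene, and how such reads were counted is not given in the sources used here.

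The 250 bases before the start of each hepcidin gene (RefSeq, GRCm38.p6, minus strand, Hamp chr7:30944030-30944279 and Hamp2 chr7:30924182-30924431) are shown because this stretch carries the elements through which BMP signals and STAT3 are known to act on hepcidin. The starts are those of RefSeq. The Hamp2 stretch lies inside the Ensembl gene counted here, which begins at 30924681 on the minus strand. Capitals mark GGCGCC, the core of the BMP-responsive element, with its aligned counterpart in Hamp2, and TTCNNNGAA, the STAT site.
Hamp: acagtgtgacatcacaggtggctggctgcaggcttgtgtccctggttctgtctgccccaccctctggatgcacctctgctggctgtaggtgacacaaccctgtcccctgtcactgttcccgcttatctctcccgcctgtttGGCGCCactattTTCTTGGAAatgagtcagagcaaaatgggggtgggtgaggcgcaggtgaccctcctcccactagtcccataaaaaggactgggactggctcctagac
Hamp2: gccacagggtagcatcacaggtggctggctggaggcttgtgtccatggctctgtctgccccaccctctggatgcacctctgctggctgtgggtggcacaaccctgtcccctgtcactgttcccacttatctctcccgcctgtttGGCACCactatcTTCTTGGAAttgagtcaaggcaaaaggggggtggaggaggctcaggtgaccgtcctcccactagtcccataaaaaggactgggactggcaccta
The sequences match at 91.9% of aligned bases. In Hamp the BMP element begins 109 bases and the STAT site 97 bases before the start, and the motifs do not overlap. Aligned to it, Hamp2 has the substitution G4A in the BMP element, with positions counted from 1 at the first base of the motif, and holds no GGCGCC, while its STAT site is the same. On either strand, GGCGCC was found in 9.59% and TTCNNNGAA in 7.02% of 32851 promoter windows, each the 250 bases before a start. Of the 8 members with a window in that table, Hamp and Tfrc held the former and Hamp and Hamp2 the latter. A match is a run of letters and not a shown binding site.

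Vehicle replicate 5 was the single liver in which hepcidin was low. Hamp had 1898 counts there against 25424 to 40652 in the other 4 vehicle livers, 19.5-fold below their mean level (-4.28 on the log2 scale). Among the 11302 genes whose mean log2 CPM in the other vehicle livers was 2 or more, no other lay as far below, the next being Upp2 at -2.83, Etnppl at -2.65 and Cyp1a2 at -2.60. Hamp2 was lower by 3.48 (log2 difference -3.48). Targets of BMP signalling were low in the same liver: Id3 had 20.5 CPM against 42.6 to 66.7 in the other vehicle livers (log2 difference -1.49), Id1 had 9.57 against 17.1 to 25.95 (-1.22), Id2 54.8 against 68.5 to 93.1 (-0.48) and Atoh8 11.6 against 11.7 to 20.2 (-0.46). Hjv (37.4 CPM against 44.6 to 58.2), Hfe (19.2 against 22.1 to 26.9) and Tmprss6 (227 against 246 to 326) were below the other vehicle livers. So were Smad1 (22.0 against 23.7 to 26.35) and, narrowly, Smad5 (38.6 against 38.9 to 39.8). Neo1, Bmpr1a, Bmpr2 and Fgl1 of the same arm were above them. Of 98 other iron and haem genes, 25.5% lay below and 15.3% above. For the 11302 genes these shares were 22.6% and 18.7%. The ligand Bmp6 was within the range of the other livers (8.14 CPM against 7.22 to 10.3), and so were Smad6, a target and brake of the same pathway (11.8 against 10.1 to 12.4), and Bmp2 (18.4 against 17.8 to 25.4).

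Erfe encodes erythroferrone, the hormone of red cell precursors that lowers hepcidin. Its transcript was also within range in that liver, with 63 counts against 30 to 67 (0.932 CPM against 0.581 to 1.06). That level is low, and liver transcripts do not show how much of the hormone was in the blood, which was not measured. The genes of the interleukin 6 arm were not low: Stat3 had 180 CPM against 153 to 191 and Socs3 27.8 against 18.5 to 31.7. Of the iron genes themselves, Slc40a1 was low (102 CPM against 160 to 190), Ftl1 was slightly low (427 against 469 to 544), and Tfrc (51.1 against 25.3 to 44.5), Fth1 (1219 against 894 to 1192) and Cp (2633 against 1814 to 2475) were above the other vehicle livers. So 4 of 10 members lay below and 3 of 10 above the range of the other 4 livers, where 22.6% and 18.7% of the 11302 genes did. The same liver held red cell transcripts at a summed level of 2035 CPM, against 223 to 522 in the other vehicle livers, 229 to 739 with hAAMs and 138 to 243 in control, and B lineage markers at 90.1 CPM, against 4.86 to 12.6 in all others. Whether those cells have any part in the low hepcidin was not tested. The library was singled out because of its Hamp level, and these values describe it.

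**Figure D3:**
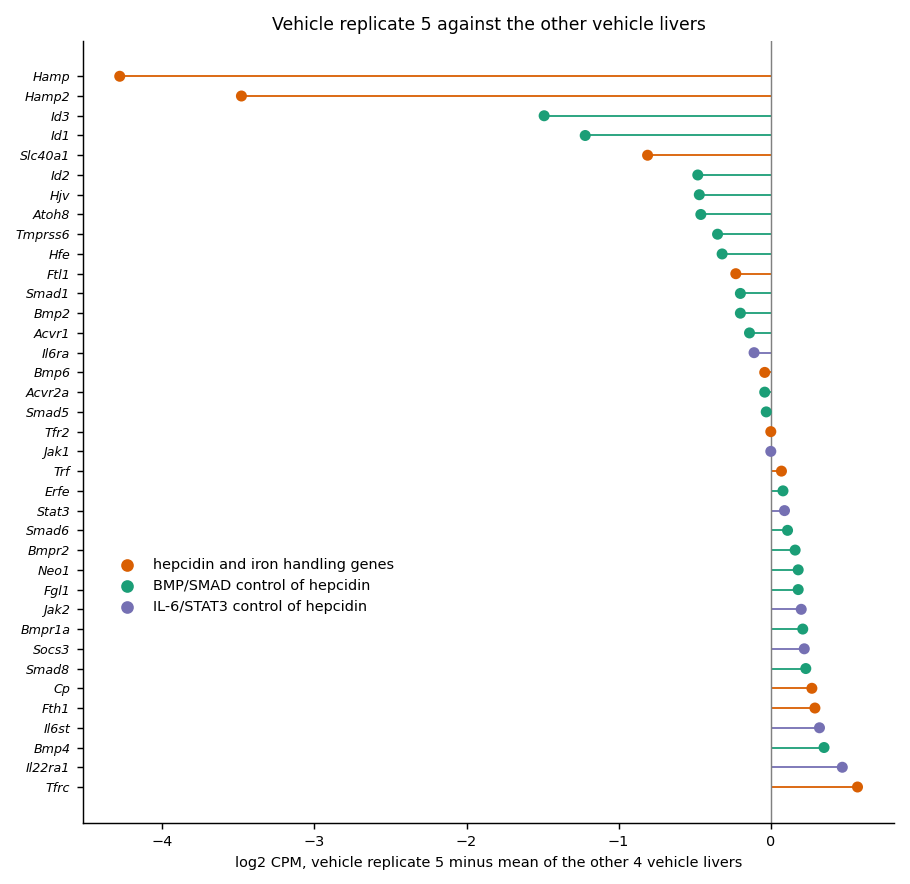
Each point is the log2 CPM of vehicle replicate 5 minus the mean of the other 4 vehicle livers, for the 10 iron genes and for genes of the BMP/SMAD and interleukin 6 arms of hepcidin control. Hamp (-4.28) and Hamp2 (-3.48) stand farthest out, then Id3, Id1 and Slc40a1 below 0 and Tfrc highest among the iron genes (0.57), while Bmp6 (-0.04) and Stat3 (0.09) lie near 0.

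Ranked by Spearman correlation over the 9 APAP livers, the genes most like Hamp among 11172 were Id3 (rho 0.967), Bola3 (0.933), Id1 (0.917), Tiam2 (0.917) and Mup10 (0.900). Id3 and Id1 encode inhibitors of DNA binding, Bola3 serves the assembly of iron-sulphur clusters in mitochondria, and Mup10 encodes a major urinary protein of a gene family whose members share reads. Without vehicle replicate 5 the values over 8 livers were 0.952 for Id3, 0.905 for Bola3, 0.905 for Id1, 0.929 for Tiam2 and 0.857 for Mup10. The levels of Bola3 spanned only 18.03 to 21.6 CPM, whereas Id3 spanned 20.5 to 66.7 CPM and Id1 7.48 to 25.95 CPM. The points share their libraries and scaling, and this is a description. These 5 genes were picked as the highest of 11172 over only 9 livers, so high values come in part from the picking. The 8 livers are among those 9, so their values are no separate check. Leaving out the closely alike pair, vehicle replicate 3 and hAAM replicate 4, kept 2 of the 5 genes among the leading 5, and ranking by Pearson's r kept 1.

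Of the genes that inform hepcidin, Tfr2 was called lower with vehicle and not with hAAMs, and Bmp6 was called in neither group. Tfr2 (ENSMUSG00000029716, chromosome 5, 137569840 to 137587481, plus strand), the receptor by which hepatocytes sense transferrin iron, had 481, 506 and 572 CPM in control. With vehicle it had 363, 397, 410, 323 and 372 CPM, every liver below every control liver. With hAAMs it had 319, 291, 525 and 401 CPM, so that replicate 3 lay among the controls. The log2 fold change was -0.48 (SE 0.167, edgeR FDR 0.0487) with vehicle and -0.44 (SE 0.176, edgeR FDR 0.0993) with hAAMs. The vehicle call was at the edge of the threshold: it was lost when any control liver, vehicle replicate 1, 2, 4 or 5, or hAAM replicate 4 was left out (-0.40 to -0.53, edgeR FDR 0.0625 to 0.166), and scaled by library size alone the value was -0.13. It was also lost without both libraries of the alike pair (-0.51, edgeR FDR 0.0688). Without hAAM replicate 3, the hAAM value passed (-0.62, edgeR FDR 0.00949).

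Bmp6 (ENSMUSG00000039004, chromosome 13, 38345107 to 38500302, plus strand), made mostly by sinusoidal endothelial cells, had 6.39, 6.999 and 7.94 CPM in control, 7.81, 10.3, 8.54, 7.22 and 8.14 with vehicle, and 8.08, 7.74, 7.53 and 7.82 with hAAMs. The groups overlapped (log2 fold change 0.24, SE 0.116, edgeR FDR 0.137 with vehicle, and 0.13, SE 0.121, edgeR FDR 0.468 with hAAMs). Its exons overlap those of Txndc5 on the other strand, a gene with 6844 to 14701 counts, and the strand setting of the counting is not given in the sources used here, so some of these counts may belong to Txndc5. Markers of sinusoidal endothelial cells were higher for 3 of 7 genes with vehicle and 2 of 7 with hAAMs (summed level 320 to 352 CPM in control, 355 to 434 with vehicle, 330 to 407 with hAAMs), and their part in the level of Bmp6 was not tested.

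In the rest of the BMP/SMAD arm, 3 of 20 genes were higher and 7 of 20 lower with vehicle, with a median log2 fold change of -0.22, and 2 were higher and 7 lower with hAAMs (median -0.28). Over all genes tested 15.0% were higher and 14.8% lower with vehicle, and 10.7% and 9.96% with hAAMs. Id1, a direct SMAD target, rose most: 2.48, 2.45 and 3.08 CPM in control, 23.7, 23.4, 17.1, 25.95 and 9.57 with vehicle, and 18.8, 11.8, 7.48 and 17.6 with hAAMs. Every APAP liver was above every control liver, and the log2 fold change was 2.90 (SE 0.377, edgeR FDR 0.000385) with vehicle and 2.38 (SE 0.378, edgeR FDR 0.00215) with hAAMs. The signal carriers did not move alike. Smad1 fell by 0.47 on the log2 scale (edgeR FDR 0.00135) and Smad5 by 0.31 (edgeR FDR 0.00187) with vehicle, and by 0.61 and 0.28 with hAAMs. Smad8 (Smad9 in current naming), the remaining carrier of this class, was higher, from 4.79 ± 1.23 CPM in control to 9.42 ± 3.35 with vehicle (log2 fold change 0.98, edgeR FDR 0.0325, lost without the alike pair) and 11.7 ± 2.91 with hAAMs (1.29, edgeR FDR 0.0164). Id2 and Id3, relatives of Id1, lay on the other side. Id2 fell by 0.78 with vehicle (edgeR FDR 0.0107) and 0.92 with hAAMs (edgeR FDR 0.00971). Id3 was -0.75 with vehicle (edgeR FDR 0.11) and fell by 1.10 with hAAMs (edgeR FDR 0.0471). That Id3 call held in 9 of 22 alternative fits and not without the alike pair. Hfe, the partner of Tfr2 in iron sensing, fell from 35.2 ± 2.52 CPM in control to 23.1 ± 2.95 with vehicle and 25.5 ± 3.31 with hAAMs (log2 fold change -0.61, edgeR FDR 0.0029, and -0.47, edgeR FDR 0.0202). Without the alike pair, the Hfe call with hAAMs was lost. All 7 genes called lower with vehicle, and 5 of the 7 with hAAMs, were no longer called when counts were scaled by library size alone, where Smad5 lay at 0.04 with vehicle and 0.02 with hAAMs.

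The interleukin 6 arm was lower in its shared receptor, its transcription factor and its feedback gene. Stat3 went from 297 ± 5.22 CPM in control to 172 ± 14.3 with vehicle and 176 ± 17.7 with hAAMs (log2 fold change -0.79, edgeR FDR 0.000235, and -0.76, edgeR FDR 0.000787). Il6st, the signalling receptor chain, fell by 0.66 with vehicle (edgeR FDR 0.00124) and by 0.67 with hAAMs (edgeR FDR 0.00276). Socs3, the feedback inhibitor that STAT3 induces, had 189, 51.0 and 72.9 CPM in control, 18.5 to 31.7 with vehicle and 14.0 to 20.5 with hAAMs. The fall was called in both comparisons, with a vehicle value of -2.05 (SE 0.336, edgeR FDR 0.00136), an hAAM value of -2.58 (SE 0.366, edgeR FDR 0.00127) and control replicate 1 far above the other controls. Il22ra1, the interleukin 22 receptor, was higher with vehicle (log2 fold change 0.65, edgeR FDR 0.0298) and not called with hAAMs (0.28, edgeR FDR 0.365). In all, 1 of 7 tested genes was higher and 3 were lower with vehicle, and 3 were lower with hAAMs, with medians of -0.09 and -0.08. The shares of all genes tested were 15.0% higher and 14.8% lower with vehicle, and 10.7% and 9.96% with hAAMs. Il6 itself was below the filter.

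Among uptake genes, the transferrin receptor was called higher with vehicle and not with hAAMs, while transferrin was called in neither group. Tfrc (ENSMUSG00000022797, chromosome 16, 32608920 to 32632794, plus strand) had 20.2, 30.4 and 23.6 CPM in control. With vehicle it had 44.5, 36.1, 34.4, 25.3 and 51.1 CPM, of which replicate 4 lay below the highest control. With hAAMs it had 42.9, 40.1, 31.0 and 35.8 CPM, all above the controls. The log2 fold change was 0.63 (SE 0.207, edgeR FDR 0.0377) with vehicle and 0.60 (SE 0.215, edgeR FDR 0.0679) with hAAMs. The vehicle call was lost without control replicate 1 or 3 or vehicle replicate 1, 2 or 5 (0.51 to 0.65, edgeR FDR 0.0525 to 0.141). The hAAM value passed without vehicle replicate 4 or 5 or hAAM replicate 3 (0.60 to 0.68, edgeR FDR 0.0333 to 0.0484). Tfrc is also high in dividing cells and red cell precursors, and the red cell marker sums given above moved with the groups (4 of 8 tested markers higher and 1 lower with vehicle, 1 lower with hAAMs), without a test of their part.

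Trf (ENSMUSG00000032554, chromosome 9, 103204001 to 103230444, minus strand) had 20890, 27450 and 24880 CPM in control, 18350, 20060, 15540, 22660 and 19950 with vehicle, and 22210, 20620, 15400 and 15510 with hAAMs. The groups overlapped, and the differences from control were -0.34 (SE 0.213, edgeR FDR 0.252) for vehicle livers and -0.40 (SE 0.223, edgeR FDR 0.218) for hAAM livers on the log2 scale. The 95% interval with vehicle ran from -0.80 to 0.13.

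Several other uptake genes were called as well. Steap4, a metalloreductase of the hepatocyte and macrophage that is induced by inflammation, had 1543, 1083 and 1209 CPM in control, 160 to 171 with vehicle and 147 to 200 with hAAMs. At -2.97 on the log2 scale (SE 0.125, edgeR FDR 3.07e-07), the vehicle difference had the smallest FDR of all 22581 genes, and at -2.88 (SE 0.135, edgeR FDR 1.09e-06) the hAAM difference did so in its own comparison. Slc11a2, the divalent metal transporter DMT1, fell by 1.25 (edgeR FDR 8.47e-05) and 1.31 (edgeR FDR 0.000165). Slc39a14, which takes up iron not bound to transferrin, fell from 636 ± 37.6 CPM to 338 ± 31.9 with vehicle and 319 ± 37.9 with hAAMs. Steap2, another metalloreductase, was higher, by 0.99 (edgeR FDR 0.00377) and 0.73 (edgeR FDR 0.027). Of the 17 genes of this list, 3 were higher and 9 lower with vehicle (median log2 fold change -0.48), and 3 higher and 8 lower with hAAMs (median -0.43), beside the 15.0% and 14.8% of all genes with vehicle and the 10.7% and 9.96% with hAAMs. Of the genes called lower, 5 of 9 and 4 of 8 were lost when scaled by library size alone.

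Of the ferritin subunits, the heavy chain was called in both APAP groups and the light chain in neither. Fth1 (ENSMUSG00000024661, chromosome 19, 9980598 to 9985098, plus strand), the subunit that oxidises iron for storage, had 645, 528 and 585 CPM in control. With vehicle it had 1005, 918, 894, 1192 and 1219 CPM, and with hAAMs 939, 692, 805 and 862. All 9 APAP livers were above all 3 control livers. The log2 fold change was 0.84 (SE 0.147, 95% interval 0.52 to 1.15, edgeR FDR 0.00196), or 1.78-fold, with vehicle, and it was called in every alternative fit, with values from 0.72 to 1.19. With hAAMs it was 0.49 (SE 0.150, 0.17 to 0.82, edgeR FDR 0.0373), or 1.41-fold. This second call was lost without any 1 control liver, hAAM replicate 1 or hAAM replicate 4 (0.42 to 0.57, edgeR FDR 0.0517 to 0.121), in a fit of only these groups (0.50, edgeR FDR 0.0631) and without both libraries of the closely alike pair (0.47, edgeR FDR 0.0659).

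Ftl1 (ENSMUSG00000050708, chromosome 7, 45457944 to 45459884, minus strand), the subunit that helps form the iron core, had 616, 454 and 544 CPM in control, 544, 469, 494, 503 and 427 with vehicle, and 538, 408, 456 and 492 with hAAMs. The groups overlapped (log2 fold change -0.14, SE 0.126, edgeR FDR 0.424, and -0.18, SE 0.132, edgeR FDR 0.351), and the 95% interval with vehicle, -0.42 to 0.13, lay below that of Fth1, which began at 0.52. Scaled by library size alone, these values were 0.21 and 0.12, so the direction of Ftl1 rests on the scaling. The copy Ftl1-ps1, with 3676 to 5528 counts, matches Ftl1 at 99.6% of aligned bases, so counts of Ftl1 are uncertain to that extent.

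The ratio of Fth1 to Ftl1 counts within a liver does not depend on scaling. It was 1.05, 1.16 and 1.08 in control, 1.85, 1.96, 1.81, 2.37 and 2.85 with vehicle, and 1.75, 1.70, 1.76 and 1.75 with hAAMs. Each vehicle liver was above each hAAM liver, and each hAAM liver above each control. The lowest vehicle value, 1.81 in replicate 3, and the 1.75 of hAAM replicate 4 belong to the closely alike libraries. The mean log2 ratio was higher by 0.963 with vehicle than in control (exact permutation test, two-sided, p = 0.0179, which is as small as 5 livers against 3 can give) and by 0.668 with hAAMs (exact permutation p = 0.0286, the smallest that 4 against 3 allow). Between hAAMs and vehicle the difference was -0.296 (exact permutation p = 0.0476). After adjustment over the 9 single-value tests these were 0.129, 0.129 and 0.143 (Benjamini-Hochberg, exact permutation), so none passed. Both values against control were already the smallest possible. Over 9 tests, even full separation from control can pass only if several other tests are as small. The missed threshold against control therefore decides nothing. Gene lengths and read assignment enter the ratio itself, and only its differences between livers are meaningful.

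**Figure D4:**
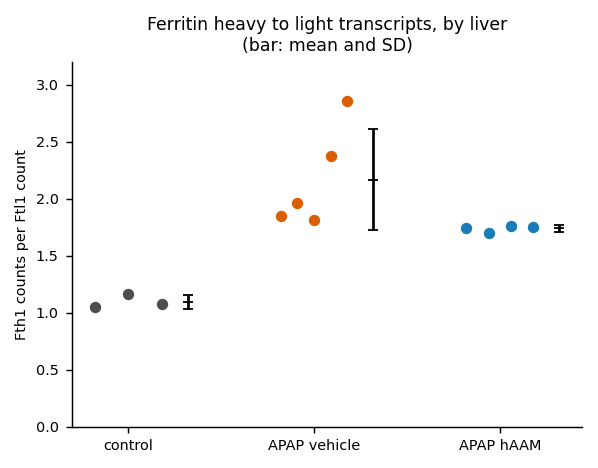
Counts of Fth1 per count of Ftl1 in each liver (points) with the mean and SD of each group (bars) for control (n = 3), APAP vehicle (n = 5) and APAP hAAM (n = 4) mice. The control livers lie at 1.05 to 1.16, the hAAM livers at 1.70 to 1.76 and the vehicle livers at 1.81 to 2.85.

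Messages of 4 members carry the IRE through which cells tie ferritin, ferroportin and the receptor to their iron. The members were listed as iron genes, and the sequences (GRCm38) are shown as background. Any part of the IRE in the transcript levels was not tested. The search was for C, then 5 bases, CAGTGN and 5 bases that pair with the former 5 (G to T pairs allowed). It found the IRE in an untranslated part of 160 of 21877 coding genes (0.731%), with 7 elements in the members. Capitals mark the loop of 6 bases.
Fth1, 5′ end, chr19:9982738-9982754, plus strand: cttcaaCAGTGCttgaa
Ftl1, 5′ end, chr7:45459785-45459801, minus strand: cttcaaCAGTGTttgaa
Slc40a1, 5′ end, chr1:45925471-45925487, minus strand: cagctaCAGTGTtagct
Tfrc, 3′ end, chr16:32631225-32631241, plus strand: cggaagCAGTGCcttcc
Tfrc, 3′ end, chr16:32631604-32631620, plus strand: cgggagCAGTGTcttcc
Tfrc, 3′ end, chr16:32631669-32631685, plus strand: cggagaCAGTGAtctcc
Tfrc, 3′ end, chr16:32631716-32631732, plus strand: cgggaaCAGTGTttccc
By this search Fth1, Ftl1 and Slc40a1 hold a single element ahead of the coding sequence, where binding blocks translation. For Tfrc it found 4 behind the coding sequence, where binding keeps the message stable. Elements that depart from the pattern are missed, so these counts are not complete. Fth1 and Ftl1 carry nearly the same element, while Fth1 was called and Ftl1 was not. For the Tfrc to Fth1 ratio, uptake set against storage, no pair of groups passed (exact permutation tests, smallest p = 0.238, 0.536 adjusted). With 3 to 5 livers a group such tests can miss a difference. The proteins that bind the element were lower as transcripts: Ireb2, the gene of IRP2, fell from 124 ± 9.57 CPM to 74.5 ± 4.36 with vehicle and 80.1 ± 10.7 with hAAMs (log2 fold change -0.74, edgeR FDR 0.000416, and -0.63, edgeR FDR 0.00243), and Aco1, the gene of IRP1, fell by 0.40 with vehicle (edgeR FDR 0.0182) and was not called with hAAMs (-0.25, edgeR FDR 0.15). Aco1 with vehicle was -0.06 when scaled by library size alone. Of 9 tested genes of storage, release and iron sensing, 1 was higher, Pcbp3, a relative of the iron chaperones (log2 fold change 0.81, edgeR FDR 0.0188), and 2 were lower with vehicle, and 1 was lower with hAAMs. Among all genes tested, 15.0% were higher and 14.8% lower with vehicle, and 9.96% were lower with hAAMs.

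For export, ferroportin transcripts were higher with vehicle. Slc40a1 (ENSMUSG00000025993, chromosome 1, 45908068 to 45926523, minus strand) had 98.1, 115 and 111 CPM in control. With vehicle it had 190, 180, 160, 187 and 102 CPM, of which the last, replicate 5, lay among the controls. With hAAMs it had 125, 138, 209 and 162 CPM, all above the controls. The log2 fold change was 0.60 (SE 0.206, edgeR FDR 0.0445) with vehicle and 0.55 (SE 0.214, edgeR FDR 0.0867) with hAAMs. Without vehicle replicate 5 these were 0.73 (edgeR FDR 0.00786) and 0.55 (edgeR FDR 0.0314), both past the threshold. The vehicle call was lost without any 1 control liver, vehicle replicate 1, 2, 3 or 4, or hAAM replicate 4 (0.54 to 0.65, edgeR FDR 0.0568 to 0.138), and without both libraries of the alike pair (0.62, edgeR FDR 0.0713). Ferroportin is abundant in Kupffer cells and other macrophages that recycle iron as well as in hepatocytes. Among Kupffer cell markers Marco alone was called higher. Of the other markers given above, 5 of 8 of recruited monocytes and macrophages were higher with vehicle, and 4 of 9 of hepatocytes were lower. The share of these cells in the rise of Slc40a1 was not tested.

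Cp (ENSMUSG00000003617, chromosome 3, 19957054 to 20009145, plus strand) encodes ceruloplasmin, the copper enzyme of plasma that oxidises exported iron for loading onto transferrin. It had 2622, 3348 and 2837 CPM in control, 2126, 2407, 1814, 2475 and 2633 with vehicle, and 2525, 3152, 2114 and 1828 with hAAMs. The groups overlapped (log2 fold change -0.36, SE 0.187, edgeR FDR 0.169, and -0.29, SE 0.197, edgeR FDR 0.323). Of 5 other tested genes of export and oxidation, 2 were higher with vehicle and 1 with hAAMs, with medians of 0.32 and 0.48. The shares of all genes tested that were higher were 15.0% and 10.7%. Slc48a1, which carries haem out of lysosomes when macrophages digest red cells, rose from 30.5 ± 3.08 CPM to 48.5 ± 3.92 with vehicle and 42.9 ± 5.43 with hAAMs (log2 fold change 0.67, edgeR FDR 0.00115, and 0.50, edgeR FDR 0.0099). Flvcr2 was higher with vehicle (0.78, edgeR FDR 0.0379, lost without the alike pair) and not called with hAAMs (0.65, edgeR FDR 0.104). Flvcr1, the haem exporter, and Abcg2, a transporter of porphyrins, were not called in either group.

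Haem synthesis is a major use of iron. Among all genes tested, 15.0% were higher and 14.8% lower with vehicle, and 9.96% were lower with hAAMs. Of 13 tested genes that serve haem synthesis, 1 was higher, 6 were lower and 6 were not called with vehicle (median log2 fold change -0.33), and 4 were lower with hAAMs (median -0.36). Scaled by library size alone, 4 of the 6 and 2 of the 4 lower calls were lost. Alas2, the erythroid form of the enzyme that starts the pathway, whose message also carries an IRE, had 88.2, 64.5 and 82.8 CPM in control, 16.6 to 30.01 with vehicle and 24.4 to 44.1 with hAAMs (log2 fold change -1.66, SE 0.197, edgeR FDR 0.000235, and -1.27, SE 0.209, edgeR FDR 0.00265). Globin transcripts, of the same lineage, went the other way: Hba-a1 had 47.4 ± 22.4 CPM in control and was higher with vehicle, at 280 ± 318 (log2 fold change 2.56, edgeR FDR 0.0303), while its value with hAAMs, 220 ± 96.5, was not called (2.21, edgeR FDR 0.0693). Vehicle replicate 5 held 841 CPM of Hba-a1 and the other 4 vehicle livers 139 ± 62.0, and without it the log2 fold change was 1.56 (edgeR FDR 0.0441). Abcb10, a mitochondrial transporter, fell by 0.78 and 0.70 on the log2 scale. Uros fell by 0.49 with vehicle (edgeR FDR 0.00775) and was -0.13 with hAAMs (edgeR FDR 0.465). The Uros call was among those lost.

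In haem breakdown, the reductases that turn biliverdin into bilirubin were higher: Blvra by 0.62 in each comparison (edgeR FDR 0.0133 with vehicle and 0.0232 with hAAMs) and Blvrb by 0.48 with vehicle (edgeR FDR 0.0363). Hmox1, the inducible haem oxygenase, had a log2 fold change of 0.00 (SE 0.473) with vehicle, with 61.0 ± 53.9 CPM in control, a spread too wide to show any but large changes, and Hmox2 was not called (0.06 and 0.23). Mitochondrial iron genes were mostly not called: of 19, 2 were lower with vehicle, among them Nfs1, which supplies the sulphur of iron-sulphur clusters (log2 fold change -0.38, edgeR FDR 0.0106). With hAAMs 1 was lower and 1 higher, the latter Hscb, a helper of cluster transfer (0.43, edgeR FDR 0.0482), whose call held in 6 of 22 alternative fits and not without the alike pair. Slc25a28, the mitochondrial iron carrier, was not called. The lower calls of this list in both comparisons were lost when scaled by library size alone. Among all genes tested, 14.8% were lower with vehicle, and 10.7% were higher and 9.96% lower with hAAMs. Among genes that bind iron in acute inflammation, Lcn2 had 708 ± 384 CPM in control, 587 ± 326 with vehicle and 539 ± 351 with hAAMs and was not called, nor were Ltf and A2m, while Slc22a17, its receptor, was higher by 0.59 and 0.60 from about 1 CPM, the latter call being lost without the alike pair.

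**Figure D5:**
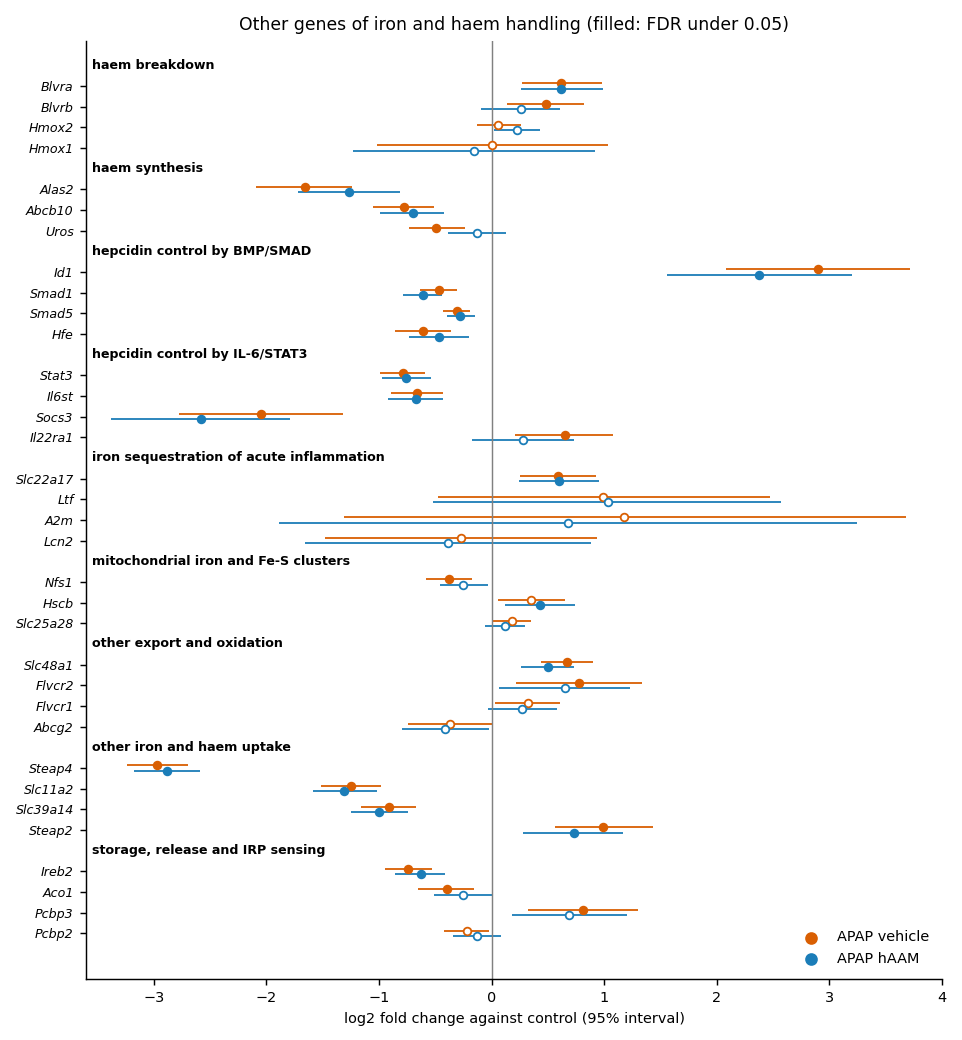
Log2 fold change against control (points) with 95% intervals (lines) for genes of each list, at most 4, with the smallest p in the vehicle comparison, filled where the FDR over all genes tested was under 0.05. Steap4 is lowest at -2.97 with vehicle and -2.88 with hAAMs, and Id1 highest at 2.90 and 2.38.

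Over all lists of iron and haem genes, 14 of 98 tested were higher and 29 lower with vehicle, with a median log2 fold change of -0.12, and 9 were higher and 24 lower with hAAMs (median -0.13). Among all genes tested, 15.0% were higher and 14.8% lower with vehicle, and 10.7% and 9.96% with hAAMs. Part of the lower calls was lost when scaled by library size alone, as given with the lists. Calls held in every alternative fit that gave a value, 21 or 22 of these, for 16 of the 43 genes called with vehicle and for 13 of the 33 called with hAAMs, among them Steap4, Slc11a2, Slc39a14, Id1, Stat3, Il6st, Socs3, Ireb2, Alas2, Abcb10 and Slc48a1 in both.

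The last comparison asked whether hAAMs changed iron genes in injured livers. None of the 10 members was called (0% of all genes tested were called by edgeR at an FDR under 0.05, and 5.02% had an unadjusted p under 0.05), their FDR ranged from 0.966 to 1, and none was called by DESeq2. The levels of every member overlapped between the treatments, while those of 1.40% of all genes did not (0.709% higher and 0.691% lower with hAAMs). The median log2 fold change was -0.05 for members and 0 for all genes. Fth1 was lower with hAAMs by 0.34 on the log2 scale (SE 0.132, 95% interval -0.63 to -0.06, unadjusted p 0.023, edgeR FDR 0.966), with hAAM replicate 1 inside the vehicle range. Between the treatments the 95% interval ran from -0.50 to 0.36 for Trf, from -0.45 to 0.35 for Slc40a1, from -0.31 to 0.45 for Cp, from -0.44 to 0.37 for Tfrc, from -0.30 to 0.38 for Tfr2, from -0.34 to 0.12 for Bmp6 and from -0.29 to 0.21 for Ftl1. Those of the hepcidins were wider, from -1.30 to 1.14 for Hamp and from -0.83 to 1.55 for Hamp2. Each of the 98 other iron and haem genes tested also missed the threshold. A missed threshold does not show that the livers were alike.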

How the data were processed

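Gene counts were deposited by the authors as raw, unnormalised counts per Ensembl gene: per the labels and the paper's methods, an rRNA-depleted, directional library was made from each liver, reads were trimmed with cutadapt 4.6, aligned to GRCm38 with STAR 2.7.1a and counted with summarizeOverlaps, whose overlap mode and strand setting are not given in the sources used here. The protocol speaks of more libraries than the 12 analysed here. Groups came from the sample labels. The spread between livers sets every p-value, and whether each came from a separate cage or day is not given.

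Counts were tested here with edgeR 4.0.16 in R 4.3.3 (TMM scaling, filterByExpr by group, 1 quasi-likelihood fit of all 12 livers, 3 contrasts, Benjamini-Hochberg FDR over all 22581 genes tested, threshold 0.05). SE is the log2 fold change over the root of its F. CPM are scaled by TMM, RPKM also by joined exon length, and log2 CPM uses a prior count of 2. Ratios of single genes were compared by two-sided exact permutation tests over livers (scipy 1.17.1). Scripts were tested on simulated data. Named were all 10 members, up to 4 genes of each pathway list with the smallest p in the vehicle comparison, and the 5 genes most like Hamp. Some genes that this rule names are not reported here. Upp2, Etnppl, Cyp1a2, Hba-a1, Smad8, Id2 and genes described in vehicle replicate 5 fall outside that rule and were picked with their values in view. The members and lists were chosen with earlier results of these data known. Alternatives were DESeq2 1.42.0, RLE factors, library size alone, other count filters, only the groups compared, a replicate block, robust estimation, leaving out each liver, and, chosen after seeing the data, DESeq2 without vehicle replicate 5. Promoters came from a RefSeq table of GRCm38.p6, transcripts from the reference of the same build. Neutrophil and B lineage lists had no gene called in any comparison, and stellate cell markers had 2 of 6 higher in each APAP group.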

Additional observations from a re-analysis of the deposited data

Results flagged for a closer look

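Of 26 groups of values checked for a single outlying liver, 4 had one, where chance alone gives about 1 in 20. The measure is the gap between the extreme liver and its nearest neighbour, over the range of the group, set against Dixon's critical value. In the vehicle group the lowest liver stood apart for Hamp (0.935), Hamp2 (0.873) and Slc40a1 (0.726), in each case vehicle replicate 5, with 28.1, 0.178 and 102 CPM. The Tfrc to Fth1 ratio was also outlying in a vehicle liver (0.809), here replicate 4, with 0.0212 against 0.0385 to 0.0443 in the others.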

How the results depend on the processing

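Fth1 with vehicle was called in every alternative. Of 10 genes, the number called with vehicle (4) was 2 with a replicate block and 2 without both hAAM replicate 4 and vehicle replicate 3, and 1 to 4 when single livers were left out. With hAAMs (1) it was 2 by DESeq2, 4 by library size alone, 0 without that pair, 3 by DESeq2 without vehicle replicate 5, and 0 to 3 without single livers. Pathway calls ranged from 28 to 44 with vehicle and from 16 to 33 with hAAMs without single livers, and were 20 with hAAMs when only the groups compared were fitted. Without the count filter, with RLE factors or with robust estimation no member changed direction.

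With library size as the only scaling, all tested genes had a median of 0.36 with vehicle and 0.32 with hAAMs on the log2 scale, and 88.6% and 89.4% of calls were higher against 50.3% and 51.8%. Values then turned for Hamp (0.18), Trf (0.01) and Ftl1 (0.21) with vehicle, for Hamp (0.07), Hamp2 (0.03), Ftl1 (0.12) and Cp (0.03) with hAAMs, and for Tfr2 between treatments (-0.02). The cause of these changes was not tested beyond that shift. Livers with the same replicate number did not deviate together (correlations -0.458 to 0.385), so the numbers do not pair them. With the replicate block, Hamp with vehicle was 0.08, Hamp2 and Tfrc between treatments -0.02 and 0.11, and the Hamp2 share with hAAMs against control -0.00942 percentage points, as it was without the alike pair. Pathway calls with the replicate block were 31 and 22. DESeq2 without vehicle replicate 5 gave Hamp 0.13 with vehicle and Tfrc 0.10 between treatments.

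Leaving out single livers turned results that were not called. Hamp with vehicle ranged from -0.30 to 0.14 and Hamp2 with hAAMs from -0.52 to 0.23. Between treatments the ranges were -0.38 to 0.06 for Hamp, -0.15 to 0.16 for Tfr2, -0.17 to 0.01 for Trf, -0.15 to 0.09 for Tfrc, -0.11 to 0.02 for Ftl1, -0.21 to 0.05 for Slc40a1 and -0.09 to 0.18 for Cp. The Hamp2 share ranged from -0.148 to 0.00975 percentage points with vehicle and from -0.0712 to 0.142 with hAAMs, and the log2 Tfrc to Fth1 ratio from -0.424 to 0.0148 and from -0.0874 to 0.351. Among the members Hamp2 had the fewest counts, 12 to 241 per liver.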
